A study of Mus musculus with 10 samples.

Results

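The genes that make fatty acids and cholesterol in the liver, together with the transcription factors and sterol sensors that drive them, were read in the livers of CCl4-treated and oil-treated mice. The set held 37 named genes, 17 of fatty acid synthesis and 20 of cholesterol synthesis. A gene was measured where the array platform's annotation gave a probe set exactly that single gene symbol, and the brightest such probe set, by its mean over the 10 arrays, represented the gene. This gave values for 34 of the 37 genes (16 of 17 and 18 of 20), out of 14860 genes measured in all. Me1 and Idi1 had no probe set of their own symbol, and Tm7sf2 had only a probe set annotated also to Vps51. These 3 genes have no expression values here, though their promoters are among those searched below.

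CCl4 (carbon tetrachloride) is a toxin that hepatocytes activate, and repeated injection leads to liver fibrosis. The CCl4 group comprised 5 male Balb/c mice injected with CCl4 dissolved in olive oil for 6 weeks. The oil group comprised 5 male Balb/c mice given oil over the same 6 weeks. All mice were obtained at 8 weeks of age, had free access to food and water under a light and dark cycle, and each contributed 1 whole-liver RNA sample to 1 Affymetrix array. The labels name 5 biological replicates in each group and record neither the hour of killing nor the feeding state. Values are log2 expression levels as deposited, and every fold change below is a difference of log2 levels, CCl4 minus oil. Levels were not compared between genes, since probe sets differ in their response.

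Sterol regulatory element-binding proteins (SREBPs) are transcription factors made as precursors in the membrane of the endoplasmic reticulum. When sterols are scarce, the escort protein Scap carries them to the Golgi apparatus, where proteases release the active factor; when sterols are abundant, Insig proteins hold Scap back. In the liver, the Srebf1 product (mainly the SREBP-1c isoform, induced by insulin) drives fatty acid synthesis, and the Srebf2 product drives cholesterol synthesis and uptake. The Mlxipl product, ChREBP, responds to carbohydrate and acts on many of the same lipogenic genes. SREBPs commonly act next to the factor NF-Y, which binds CCAAT boxes.

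Promoter sequences from RefSeq (GRCm38.p6), each running from 250 bases before to 50 after a transcription start, were found for 30 of the 37 genes (39 promoters, since some genes have several). The motifs searched, on both strands, were TCACNCCAC (a form of the sterol regulatory element), CACGTG (an E-box) and CCAAT. No match of one motif overlapped a match of another. The CCAAT box was present in 28 of the 39 promoters (71.8%), against 37.4% of all 32851 promoters of that length. By gene, 27 of 30 (90%) had it in at least 1 promoter, against 41.1% of all genes. The E-box stood in 6 of 39 promoters (15.4%, against 7.15% of all) and the TCACNCCAC form in 2 (5.13%, against 1.24% of all), those of Hmgcs1 and Mlxipl. A match describes letters only, and the absence of a match says nothing of binding. The promoters of 5 genes that recur in the results are printed 5′ to 3′ on the gene's strand, with each match in capitals on whichever strand it lay (ATTGG is the CCAAT box on the opposite strand). Hmgcs1 (chr13:119690101-119690400, plus strand), which makes the precursor of mevalonate, is shown because it held the TCACNCCAC form, at positions -137 to -129 from the start, with 4 CCAAT boxes. Insig1 (chr5:28071162-28071461, plus strand), the sterol-regulated Insig, held an E-box and a CCAAT box. Fasn (chr11:120824498-120824797, minus strand), fatty acid synthase, held 3 CCAAT boxes, 2 of them overlapping on opposite strands in ccaattgg. Nsdhl (chrX:72918271-72918570, plus strand), a sterol dehydrogenase, held 4. Ebp (chrX:8193463-8193762, minus strand), the sterol isomerase whose groups did not overlap, held 2.
Hmgcs1: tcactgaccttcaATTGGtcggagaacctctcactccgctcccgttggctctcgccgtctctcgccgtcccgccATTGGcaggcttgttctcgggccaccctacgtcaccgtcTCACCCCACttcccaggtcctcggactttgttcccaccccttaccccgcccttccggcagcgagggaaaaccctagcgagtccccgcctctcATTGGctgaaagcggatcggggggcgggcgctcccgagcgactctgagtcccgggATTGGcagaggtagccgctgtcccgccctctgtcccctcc
Insig1: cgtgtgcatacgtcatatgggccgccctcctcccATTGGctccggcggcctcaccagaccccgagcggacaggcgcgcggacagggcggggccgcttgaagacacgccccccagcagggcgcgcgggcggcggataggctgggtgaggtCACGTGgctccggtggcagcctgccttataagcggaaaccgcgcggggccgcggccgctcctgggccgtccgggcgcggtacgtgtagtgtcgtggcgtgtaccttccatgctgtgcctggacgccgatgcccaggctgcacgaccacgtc
Fasn: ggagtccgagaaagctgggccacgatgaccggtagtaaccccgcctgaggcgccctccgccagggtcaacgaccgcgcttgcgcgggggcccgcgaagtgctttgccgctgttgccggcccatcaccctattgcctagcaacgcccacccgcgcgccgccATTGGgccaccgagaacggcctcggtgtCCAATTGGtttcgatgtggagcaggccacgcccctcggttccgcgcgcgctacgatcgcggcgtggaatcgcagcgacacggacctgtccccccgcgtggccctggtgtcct
Nsdhl: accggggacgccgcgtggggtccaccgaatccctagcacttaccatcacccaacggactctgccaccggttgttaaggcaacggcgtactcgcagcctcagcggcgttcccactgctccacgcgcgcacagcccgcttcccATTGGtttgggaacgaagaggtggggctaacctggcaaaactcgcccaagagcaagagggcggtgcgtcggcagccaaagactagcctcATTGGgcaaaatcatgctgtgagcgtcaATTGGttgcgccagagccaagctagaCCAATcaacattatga
Ebp: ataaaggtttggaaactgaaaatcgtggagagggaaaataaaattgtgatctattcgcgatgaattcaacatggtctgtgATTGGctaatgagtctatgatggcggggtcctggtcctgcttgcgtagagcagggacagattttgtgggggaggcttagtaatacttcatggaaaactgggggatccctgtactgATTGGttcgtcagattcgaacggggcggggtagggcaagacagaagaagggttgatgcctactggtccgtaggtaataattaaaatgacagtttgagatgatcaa

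None of the 34 genes passed the threshold (limma, Benjamini-Hochberg adjusted p under 0.05 over all 23332 probe sets): 0 were lower in CCl4 livers, where 17 of all 14860 genes (0.114%) were, and 0 were higher, where 116 (0.781%) were. At an unadjusted p under 0.05, 3 were lower (Mlxipl, Fads1 and Ebp), where 4.5% of all genes were, and 0 were higher, where 8.23% were. Of the 4447 genes with a mean level of at least 5, 394 were lower and 350 higher by the same measure. Without CCl4 replicate 1, 6 were lower by that measure, where 4.19% of all genes were. The methods' t-test at its own threshold called 1 lower (Mlxipl), where it called 0.592% of all genes lower. The estimates nevertheless leaned to the same side, with 30 log2 fold changes below 0 and 4 above. Their median was -0.35, -0.37 in the fatty acid branch and -0.34 in the cholesterol branch, against 0.01 over all genes and -0.02 over the 4447 genes with a mean level of at least 5. In whole-liver RNA, fewer cells of a type and less RNA per cell cannot be told apart.

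This lean depended most on 1 liver, CCl4 replicate 4. Yet CCl4 replicates 2 and 5 also lay below the oil mean for 25 and 30 of the 34 genes. CCl4 replicate 1 did so for only 7. CCl4 replicate 4 had the lowest value of all 10 livers for 28 of the 34 genes (82.4%), against 15.3% of all genes and 20.2% of those with a mean level of at least 5. This held for 13 of 16 genes of the fatty acid branch and 15 of 18 of the cholesterol branch. The exceptions were Acacb, for which it was the highest liver, and Fads2, Gpam, Fdps, Hsd17b7 and Ebp, for which it was neither. Relative to the mean of the other 4 CCl4 livers, it lay between -6.84 (Thrsp) and 1.00 (Acacb), with a median of -1.38. Without it, 22 log2 fold changes were below 0 and 12 above, 10 genes had changed sign, and the median was -0.04 (-0.08 in the fatty acid branch, -0.03 in the cholesterol branch), against -0.00 over all genes. Over the 4447 genes with a mean level of at least 5 the median was then -0.05, with 2717 below 0 and 1730 above. Without CCl4 replicate 4, 0 of the 34 genes passed in either direction, where 0.074% of all genes were lower and 0.491% higher. Mlxipl and Ebp remained at an unadjusted p under 0.05, both lower, where 4.87% of all genes were lower and 7.55% higher. Of the 4447 genes with a mean level of at least 5, 444 were then lower and 307 higher.

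**Figure D1:**
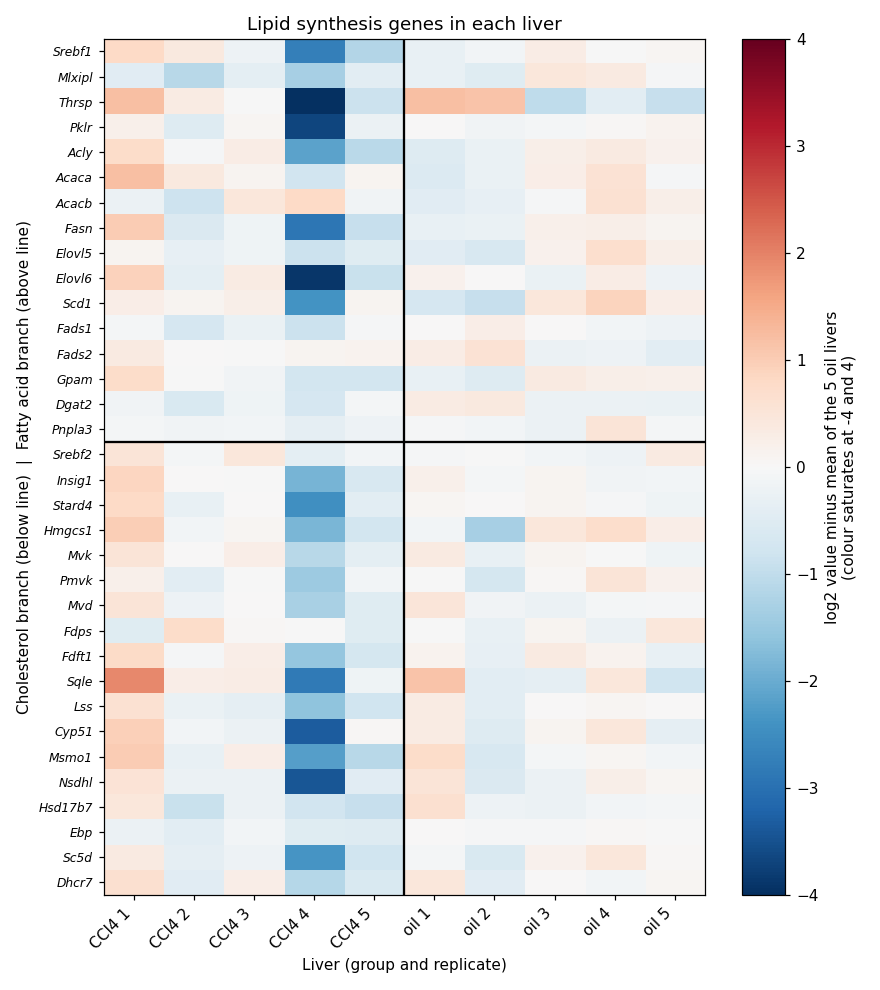
Colour gives the log2 level of each of the 34 genes (rows) in each liver (columns, CCl4 replicates 1 to 5 left of oil replicates 1 to 5) minus the mean of the 5 oil livers. The column of CCl4 replicate 4 is blue for most genes of both branches, and its largest deviation is -6.68 (Thrsp), while the column of CCl4 replicate 1 is mostly red.

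The other end of the range was also held by a CCl4 liver. CCl4 replicate 1 had the highest value of the 10 livers for 20 of the 34 genes (58.8%), against 6.84% of all genes, 7 in the fatty acid branch and 13 in the cholesterol branch. The median deviation from the oil mean over the fatty acid branch was 0.31, -0.24, -0.07, -1.10 and -0.34 in CCl4 replicates 1 to 5, against -0.28, -0.19, 0.10, 0.28 and 0.03 in oil replicates 1 to 5. Over the cholesterol branch it was 0.59, -0.22, 0.00, -1.58 and -0.50 in CCl4 replicates 1 to 5, against 0.26, -0.37, 0.03, 0.06 and -0.02 in oil replicates 1 to 5. The 5 CCl4 livers therefore stood in the same order in both branches, replicate 1 highest, then 3, 2, 5 and 4. The oil livers did not, since oil replicate 1 was lowest of its group in the fatty acid branch and highest in the cholesterol branch. The number of the 34 genes below the oil mean was 7, 25, 18, 32 and 30 in CCl4 replicates 1 to 5, against 15, 28, 14, 13 and 18 in oil replicates 1 to 5.

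The spread within the CCl4 group followed. The median SD of a gene was 0.76 in CCl4 livers and 0.34 in oil livers (n = 5 each), against 0.19 in CCl4 and 0.16 in oil livers over all genes. Over genes with a mean of at least 5 it was 0.25 in CCl4 livers and 0.20 in oil livers. The SD was larger in CCl4 than in oil livers for 30 of the 34 genes (88.2%), against 59.9% of all genes. Without CCl4 replicate 4 the median SD in CCl4 livers was 0.53 (n = 4), and it was larger than in oil livers for 25 genes (73.5%), against 48.7% of all genes. These are descriptions, with no test.

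**Figure D2:**
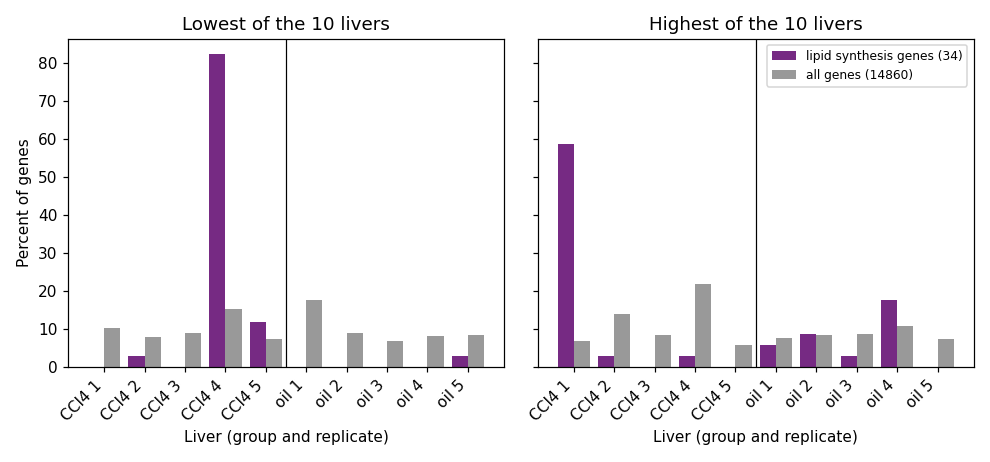
Percent of the 34 lipid synthesis genes (purple) and of all 14860 genes (grey) for which each liver had the lowest (left) or the highest (right) value of the 10. CCl4 replicate 4 was lowest for 82.4% of the lipid synthesis genes against 15.3% of all genes, and CCl4 replicate 1 highest for 58.8% against 6.84%.

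Among the regulators of fatty acid synthesis, Srebf1 read 8.24, 7.82, 7.24, 4.71 and 6.26 in CCl4 replicates 1 to 5, against 7.15, 7.33, 7.75, 7.44 and 7.53 in oil replicates 1 to 5. The CCl4 values ran from far below to above the oil range, and the groups overlapped. For Srebf1 the log2 fold change came to -0.58 ± 0.56 (SE; adjusted p = 0.795), and -0.05 ± 0.34 without CCl4 replicate 4 (adjusted p = 0.981). Mlxipl, the carbohydrate-responsive factor, read 6.89, 6.22, 6.94, 5.99 and 6.90 in CCl4 replicates 1 to 5, against 7.04, 6.85, 7.78, 7.68 and 7.29 in oil replicates 1 to 5. Only oil replicate 2 lay within the range of the CCl4 livers, and replicates 2 and 4 were the lowest CCl4 livers. Mlxipl averaged 6.59 ± 0.45 in CCl4 livers and 7.33 ± 0.40 in oil livers (SD, n = 5 each), a log2 fold change of -0.74 ± 0.24 (SE; 95% interval -1.28 to -0.20) with a limma adjusted p of 0.239, so that it did not pass. Without CCl4 replicate 4 the difference was still -0.59 ± 0.23 (SE; adjusted p = 0.348). Thrsp, the nuclear lipogenic protein Spot 14, read 11.47, 10.61, 10.25, 3.59 and 9.42 in CCl4 replicates 1 to 5, against 11.48, 11.43, 9.25, 9.87 and 9.36 in oil replicates 1 to 5. Its value of 3.59 in CCl4 replicate 4 was the farthest from its group of any gene in the set. The fitted log2 fold change of Thrsp was -1.21 ± 1.31 (SE; adjusted p = 0.826), and 0.16 ± 0.58 without CCl4 replicate 4 (adjusted p = 0.957). The oil livers of Thrsp also split, with replicates 1 and 2 high and the others lower.

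Pklr, which makes the pyruvate from which the carbon of fatty acids comes, read 9.53, 8.80, 9.41, 5.64 and 9.08 in CCl4 replicates 1 to 5, against 9.34, 9.20, 9.25, 9.38 and 9.46 in oil replicates 1 to 5. All livers but CCl4 replicate 4 lay between 8.80 and 9.53. CCl4 minus oil for Pklr was -0.83 ± 0.64 (SE; adjusted p = 0.715), and -0.12 ± 0.15 without CCl4 replicate 4 (adjusted p = 0.842). Acly, the ATP citrate lyase that makes cytosolic acetyl-CoA, had a log2 fold change of -0.45 with all livers and -0.03 without CCl4 replicate 4.

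Acetyl-CoA carboxylase has 2 genes, and they went apart in CCl4 replicate 4. Acaca, the cytosolic carboxylase that commits carbon to fatty acid synthesis, read 7.51, 6.71, 6.44, 5.56 and 6.43 in CCl4 replicates 1 to 5, against 5.78, 6.06, 6.57, 6.90 and 6.26 in oil replicates 1 to 5. CCl4 replicate 1 was highest and CCl4 replicate 4 lowest, with the oil livers between them. Its log2 fold change of 0.21 ± 0.33 (SE) was the largest positive one in the set but did not pass (adjusted p = 0.890), and it was 0.46 ± 0.28 without CCl4 replicate 4 and -0.03 without CCl4 replicate 1. Acacb, the mitochondrial carboxylase whose malonyl-CoA restrains fatty acid oxidation, read 5.16, 4.58, 5.85, 6.21 and 5.25 in CCl4 replicates 1 to 5, against 4.95, 5.05, 5.34, 6.00 and 5.63 in oil replicates 1 to 5. Here CCl4 replicate 4 was the highest of the 10 livers. The group means were alike within their spread, with a log2 fold change of 0.01 ± 0.31 (SE; adjusted p = 0.995), whose sign turned under quantile normalization (-0.05), median centring (-0.05), array quality weights (-0.10) and without CCl4 replicate 4 (-0.19). Fasn, which builds the fatty acid chain, read 9.05, 7.46, 7.86, 5.13 and 7.12 in CCl4 replicates 1 to 5, against 7.75, 7.76, 8.24, 8.27 and 8.14 in oil replicates 1 to 5. CCl4 replicate 1 lay above all oil livers, while CCl4 replicates 2, 4 and 5 lay below all of them. The group difference of Fasn was -0.71 ± 0.57 (SE; adjusted p = 0.733), and -0.16 ± 0.34 without CCl4 replicate 4 (adjusted p = 0.926).

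Among the enzymes that lengthen and desaturate fatty acids, Elovl6, which extends palmitate, read 9.38, 8.08, 8.78, 4.57 and 7.56 in CCl4 replicates 1 to 5, against 8.62, 8.49, 8.19, 8.76 and 8.25 in oil replicates 1 to 5. CCl4 replicate 1 was again the highest liver and CCl4 replicate 4 the lowest. The log2 fold change of Elovl6 was -0.79 ± 0.74 (SE; adjusted p = 0.785), and -0.01 ± 0.33 without CCl4 replicate 4 (adjusted p = 0.995). Scd1, the desaturase that makes oleate, read 11.59, 11.44, 11.56, 8.93 and 11.44 in CCl4 replicates 1 to 5, against 10.65, 10.40, 11.80, 12.22 and 11.60 in oil replicates 1 to 5. The other 4 CCl4 livers lay close together inside the oil range, and CCl4 replicate 4 stood apart, at -2.58 relative to their mean. For Scd1 the log2 fold change came to -0.34 ± 0.55 (SE; adjusted p = 0.896), and 0.17 ± 0.35 without CCl4 replicate 4 (adjusted p = 0.918). Scd1 has close paralogues, and cross-hybridisation of its probe set was not checked.

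The enzymes of polyunsaturated fatty acid synthesis showed smaller differences between livers. Fads1, the delta-5 desaturase, read 9.71, 9.10, 9.51, 8.91 and 9.72 in CCl4 replicates 1 to 5, against 9.78, 10.05, 9.80, 9.68 and 9.58 in oil replicates 1 to 5. CCl4 replicates 2, 3 and 4 lay below all oil livers and the others within their range. The fitted log2 fold change of Fads1 was -0.39 ± 0.17 (SE; adjusted p = 0.422), and -0.27 ± 0.15 without CCl4 replicate 4 (adjusted p = 0.556). Fads2, the delta-6 desaturase, read 10.97, 10.61, 10.58, 10.70 and 10.75 in CCl4 replicates 1 to 5, against 10.90, 11.17, 10.38, 10.39 and 10.18 in oil replicates 1 to 5. Its CCl4 livers, replicate 4 included, lay within the oil range, and the log2 fold change was 0.12 ± 0.18 (SE; adjusted p = 0.895), whose sign turned with a clock covariate (-0.03). Elovl5, the elongase of the same route, had a log2 fold change of -0.34 (adjusted p = 0.714).

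Of the genes of glycerolipid assembly, Gpam (the acyltransferase that starts triglyceride synthesis) had a log2 fold change of -0.18 and Dgat2 (the acyltransferase that ends it) one of -0.34, and neither passed (adjusted p = 0.895 and 0.535). Pnpla3, a lipase and remodelling enzyme of lipid droplets, read 2.87, 2.81, 2.84, 2.60 and 2.75 in CCl4 replicates 1 to 5, against 2.90, 2.83, 2.72, 3.47 and 2.87 in oil replicates 1 to 5. These values lay close to the median of all probe sets on the arrays (2.54 to 2.66), and only Fdps averaged lower in the set. CCl4 minus oil for Pnpla3 was -0.18 ± 0.14 (SE; adjusted p = 0.695).

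**Figure D3:**
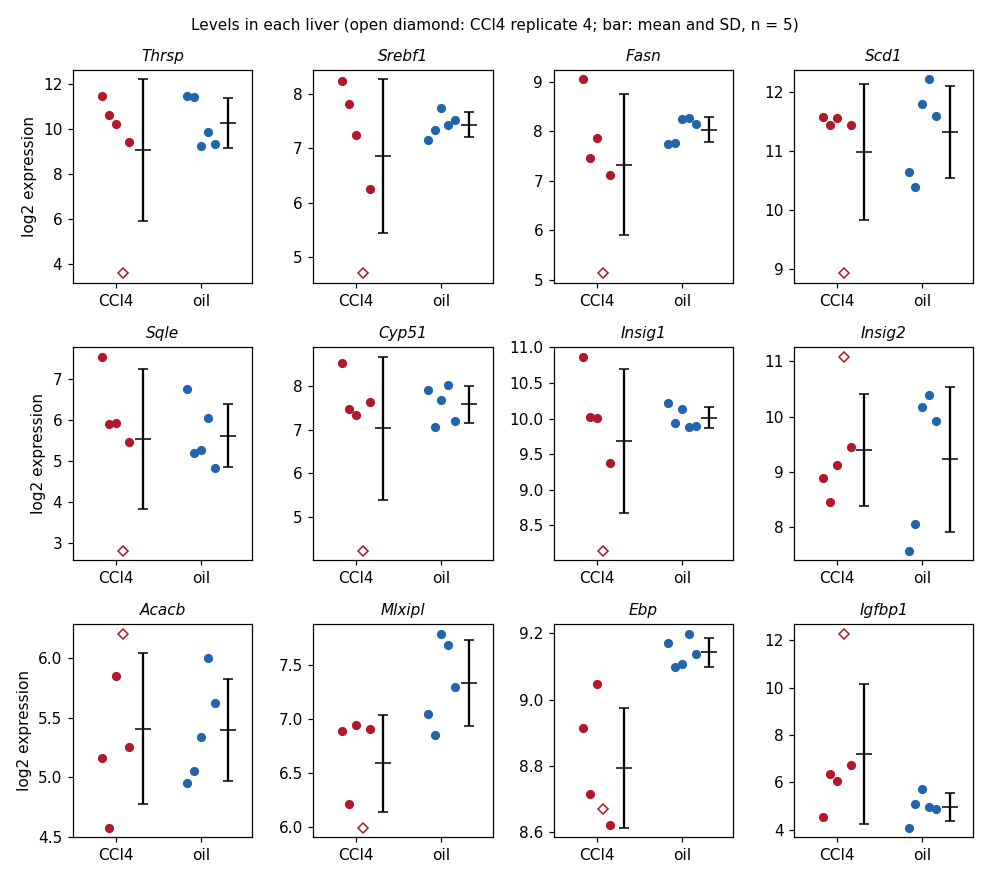
Log2 expression of 12 genes in each liver, CCl4 (red) left of oil (blue) in every panel, with the mean and SD (n = 5) as a bar beside the points; vertical axes differ between panels and do not start at 0. CCl4 replicate 4 (open diamond) is the lowest liver for Thrsp (3.59), Srebf1, Fasn, Scd1, Sqle, Cyp51, Insig1 and Mlxipl and the highest for Acacb, Insig2 and Igfbp1 (12.27), while the groups do not overlap for Ebp.

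Among the regulators of cholesterol synthesis, Srebf2 read 7.64, 7.02, 7.57, 6.72 and 7.00 in CCl4 replicates 1 to 5, against 7.08, 7.11, 7.02, 6.90 and 7.47 in oil replicates 1 to 5. CCl4 replicate 4 was the lowest liver, though close to oil replicate 4, and CCl4 replicate 1 the highest. The group difference of Srebf2 was 0.07 ± 0.19 (SE; adjusted p = 0.942), and 0.19 ± 0.17 without CCl4 replicate 4 (adjusted p = 0.76), and its sign turned without CCl4 replicate 1 (-0.04). Insig1, itself an SREBP target that reports the pathway's output, read 10.87, 10.02, 10.01, 8.15 and 9.37 in CCl4 replicates 1 to 5, against 10.22, 9.94, 10.13, 9.88 and 9.90 in oil replicates 1 to 5. The oil livers lay close together, with CCl4 replicate 1 above them all and CCl4 replicates 4 and 5 below them all. The log2 fold change of Insig1 was -0.33 ± 0.41 (SE; adjusted p = 0.857), and 0.05 ± 0.25 without CCl4 replicate 4 (adjusted p = 0.966). Stard4, a cytosolic sterol carrier protein, had a log2 fold change of -0.47 with all livers and 0.02 without CCl4 replicate 4, which stood at -2.47 relative to the mean of the other CCl4 livers.

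In the mevalonate steps, Hmgcs1, which condenses acetyl units into the precursor of mevalonate, read 9.76, 8.69, 8.87, 6.96 and 8.04 in CCl4 replicates 1 to 5, against 8.66, 7.47, 9.24, 9.50 and 9.05 in oil replicates 1 to 5. CCl4 replicate 4 was lowest and CCl4 replicate 1 highest, and oil replicate 2 (7.47) also stood below the other oil livers. For Hmgcs1 the log2 fold change came to -0.32 ± 0.52 (SE; adjusted p = 0.896), and 0.06 ± 0.44 without CCl4 replicate 4 (adjusted p = 0.982). The kinases Mvk and Pmvk and the decarboxylase Mvd were lowest in CCl4 replicate 4, with log2 fold changes of -0.14, -0.36 and -0.30. Fdps, which joins isoprenoid units, was dim (1.54 to 2.76 over the 10 livers), with a log2 fold change of -0.04. None of these passed the threshold.

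In the steps to lanosterol, Sqle, the oxygenase that opens the way to sterols, read 7.55, 5.90, 5.93, 2.81 and 5.46 in CCl4 replicates 1 to 5, against 6.75, 5.20, 5.27, 6.06 and 4.82 in oil replicates 1 to 5. Both groups were spread widely, the CCl4 group more so, and CCl4 replicates 1 and 4 were its extremes. The fitted log2 fold change of Sqle was -0.09 ± 0.74 (SE; adjusted p = 0.985), and 0.59 ± 0.49 without CCl4 replicate 4 (adjusted p = 0.735), while with array quality weights the sign turned as well (0.38). Fdft1, squalene synthase, and Lss, which closes the sterol rings, had log2 fold changes of -0.26 and -0.49. For all 3 genes CCl4 replicate 1 was the highest liver and CCl4 replicate 4 the lowest.

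In the steps from lanosterol to cholesterol, Cyp51, the sterol demethylase, read 8.53, 7.46, 7.33, 4.24 and 7.62 in CCl4 replicates 1 to 5, against 7.91, 7.07, 7.68, 8.01 and 7.20 in oil replicates 1 to 5. Of the other CCl4 livers, replicate 1 lay above the oil range and the rest within it. CCl4 minus oil for Cyp51 was -0.54 ± 0.67 (SE; adjusted p = 0.857), and 0.16 ± 0.28 without CCl4 replicate 4 (adjusted p = 0.908). Nsdhl, a dehydrogenase in the removal of ring methyl groups, read 9.78, 8.99, 8.99, 5.79 and 8.78 in CCl4 replicates 1 to 5, against 9.72, 8.63, 8.98, 9.45 and 9.31 in oil replicates 1 to 5. All livers but CCl4 replicate 4 lay between 8.63 and 9.78. The group difference of Nsdhl was -0.75 ± 0.63 (SE; adjusted p = 0.743), and -0.09 ± 0.26 without CCl4 replicate 4 (adjusted p = 0.947). Msmo1 (the oxidase of the same demethylation), Sc5d (a desaturase) and Dhcr7 (the last reductase) had log2 fold changes of -0.46, -0.68 and -0.26, and Hsd17b7, the reductase that works with Nsdhl, one of -0.47.

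Ebp departed from this pattern. Ebp, the isomerase that moves the sterol ring double bond, read 8.91, 8.71, 9.05, 8.67 and 8.62 in CCl4 replicates 1 to 5, against 9.17, 9.10, 9.11, 9.20 and 9.14 in oil replicates 1 to 5. Every CCl4 liver was below every oil liver, which was so of 1 of the 34 genes and of 1.42% of all genes. Among the 4447 genes with a mean level of at least 5 it was so of 132, a share close to that in the set. CCl4 replicate 4 was not its lowest liver. Ebp averaged 8.79 ± 0.18 in CCl4 livers and 9.14 ± 0.04 in oil livers (SD, n = 5 each), a log2 fold change of -0.35 ± 0.09 (SE; 95% interval -0.56 to -0.14). It had the smallest p of the set, with an adjusted p of 0.139 that did not pass. Without CCl4 replicate 4 it was -0.32 ± 0.10 (adjusted p = 0.224), and after quantile normalization the groups overlapped.

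**Figure D4:**
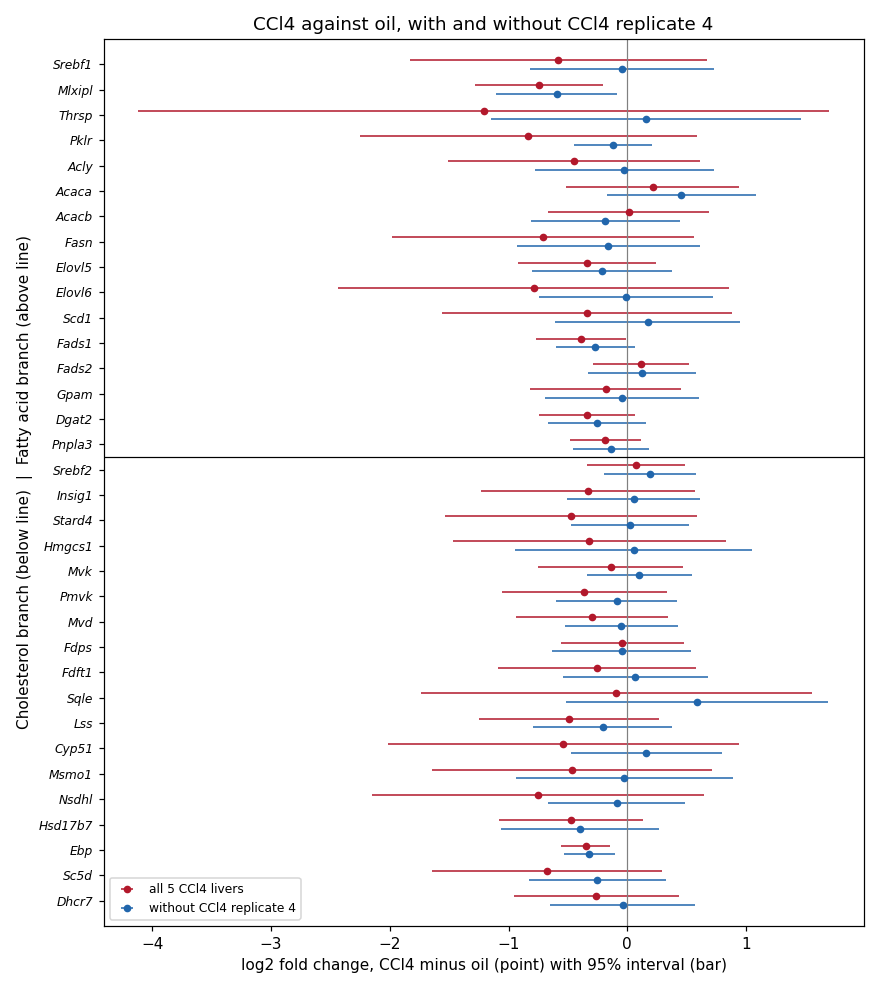
Log2 fold change (CCl4 minus oil) of each of the 34 genes with its 95% interval, from limma with all 5 CCl4 livers (red) and without CCl4 replicate 4 (blue). Most red points lie left of 0 (30 of 34) with wide intervals, most blue points lie closer to 0, and only Mlxipl and Ebp have both intervals below 0.

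The genes that process and control SREBPs were placed differently. Of 10 named, 7 were measured, 0 passed the threshold in either direction, and CCl4 replicate 4 was lowest for 0 of them and highest for 3. Scap, the escort, read 7.19, 6.87, 7.39, 7.67 and 7.15 in CCl4 replicates 1 to 5, against 7.67, 7.46, 7.68, 7.60 and 7.85 in oil replicates 1 to 5, and its log2 fold change was -0.40 ± 0.14 (SE; adjusted p = 0.287). Here CCl4 replicate 4 was the highest CCl4 liver. Without it every CCl4 liver was below every oil liver, as for 2.12% of all genes (-0.50 ± 0.12, adjusted p = 0.126). Rnf145, a ubiquitin ligase that acts on Scap, had a log2 fold change of 0.49 (adjusted p = 0.328). Nfya, a subunit of NF-Y, was at 0.28 and Rnf139, another ligase of the sterol sensing system, at 0.08. Insig2, the Insig that SREBPs do not induce (named after its values were seen), read 8.89, 8.46, 9.12, 11.08 and 9.45 in CCl4 replicates 1 to 5, against 7.58, 8.07, 10.18, 10.38 and 9.91 in oil replicates 1 to 5. CCl4 replicate 4 was the highest liver for Insig2 and the lowest for Insig1, and the log2 fold change of Insig2, 0.17, turned to -0.18 with array quality weights and to -0.25 without CCl4 replicate 4.

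Most of the other known SREBP targets were also at their lowest in CCl4 replicate 4. Of 16 named, 9 were measured, 0 passed and the median log2 fold change was -0.35, and -0.09 without CCl4 replicate 4, which was the lowest liver for 7 of the 9 (77.8%, against 15.3% of all genes). Their median deviation was 0.18, -0.36, -0.11, -1.57 and -0.10 in CCl4 replicates 1 to 5, against 0.05, -0.13, 0.04, 0.09 and 0.00 in oil replicates 1 to 5. Pcyt2 (phosphatidylethanolamine synthesis) had the smallest p of the list, with a log2 fold change of -0.28 (adjusted p = 0.389), followed by Hsd17b12 at -0.43, Rdh11 at -0.62 and Slc25a1, the mitochondrial citrate carrier, at -0.39. Aacs and Lpin1 were chosen after their values were seen. Aacs, which activates acetoacetate for lipid synthesis, read 7.03, 5.47, 6.30, 3.93 and 6.22 in CCl4 replicates 1 to 5, against 6.69, 5.88, 6.31, 6.02 and 6.72 in oil replicates 1 to 5, with CCl4 replicate 4 again lowest. Lpin1, a phosphatidate phosphatase, read 6.49, 5.35, 4.83, 10.14 and 7.33 in CCl4 replicates 1 to 5, against 7.28, 8.26, 5.18, 5.02 and 4.93 in oil replicates 1 to 5, with CCl4 replicate 4 highest of all livers.

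Of the LXR list (sterol-sensing receptors that act upstream of Srebf1, and their targets), 7 of 8 genes were measured, 0 passed, and CCl4 replicate 4 was lowest for 0. The sterol exporters in it differed in sign, and none passed with all livers and all probe sets. Abcg1 was at 1.17 (adjusted p = 0.0819), which passed among brighter probe sets only (adjusted p = 0.044) and without CCl4 replicate 5 (1.40, adjusted p = 0.00817). Abcg8 was at -0.79 (adjusted p = 0.24), Abcg5 at -0.49 (adjusted p = 0.332) and Mylip, which leads to degradation of the LDL receptor, at 0.62 (adjusted p = 0.352). Every CCl4 liver was above every oil liver for Abcg1 and Mylip, as for 3.5% of all genes, and below every oil liver for Abcg8, as for 1.42% of all genes. Of glycolysis and pentose phosphate genes, which supply carbon and NADPH, 7 of 10 were measured and 0 passed, and CCl4 replicate 4 was lowest for 4 of the 7. Txnip, a glucose-induced ChREBP target, was at 0.54, Tkt at -0.37, Pgd at 0.35 and Khk at -0.38, all below the threshold of a call. For Tkt every CCl4 liver was also below every oil liver, though narrowly (highest CCl4 liver 7.198, lowest oil liver 7.199).

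Genes that the liver raises in fasting were at their highest in CCl4 replicate 4. Of 16 named, 12 were measured, and CCl4 replicate 4 was the highest liver for all 12, against 21.8% of all genes and 31.8% of those with a mean level of at least 5. The list was chosen with earlier results of these data known, so this count is a description only. Their median deviation was 0.23, 0.24, 0.46, 2.29 and 0.63 in CCl4 replicates 1 to 5, against 0.00, 0.24, -0.12, 0.06 and -0.17 in oil replicates 1 to 5. Igfbp1, a secreted binding protein that insulin represses, read 4.53, 6.37, 6.05, 12.27 and 6.71 in CCl4 replicates 1 to 5, against 4.09, 5.09, 5.73, 4.95 and 4.88 in oil replicates 1 to 5. Pdk4, the kinase that shuts pyruvate out of oxidation, read 3.57, 3.79, 4.45, 6.86 and 5.07 in CCl4 replicates 1 to 5, against 3.01, 3.06, 4.79, 6.59 and 4.46 in oil replicates 1 to 5. Igfbp1 in CCl4 replicate 4 stood far from every other liver, whereas Pdk4 was about as high in oil replicate 4 as in CCl4 replicate 4. Ppargc1a, a coactivator of gluconeogenesis (named after its values were seen), read 5.57, 5.37, 5.68, 9.14 and 4.74 in CCl4 replicates 1 to 5, against 4.57, 5.13, 5.51, 5.56 and 4.47 in oil replicates 1 to 5, and CCl4 replicate 4 was again alone at the top. Cyp4a14, a fatty acid hydroxylase under PPARα, read 7.37, 4.48, 6.10, 12.18 and 7.25 in CCl4 replicates 1 to 5, against 2.16, 2.57, 3.19, 2.92 and 3.22 in oil replicates 1 to 5. Every CCl4 liver was above every oil liver for Cyp4a14, as for 3.5% of all genes, with a log2 fold change of 4.66 (adjusted p = 0.11). Without CCl4 replicate 4 the log2 fold change of Cyp4a14 was 3.49 (adjusted p = 0.0376). There it was the only gene of these 12 to pass, where 0.491% of all genes were higher. Angptl4 was at 1.03, Lpin2 at 0.96 and Fgf21 at 0.23, none of which passed. Over the 12 genes, the lead of CCl4 replicate 4 over the next liver ran from 0.06 (Fgf21) to 5.55 (Igfbp1). The part of feeding state in the lipid synthesis values was not tested.

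**Figure D5:**
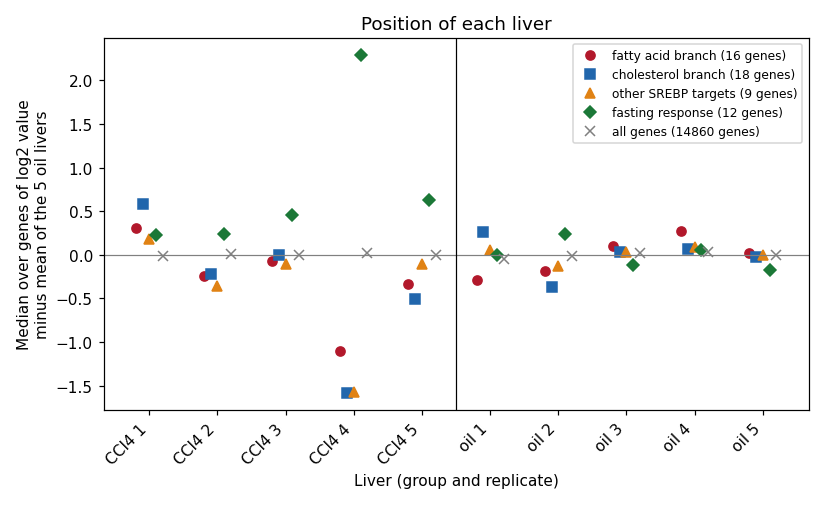
Median over the genes of each list of the log2 level minus the oil mean (vertical axis), in each of the 10 livers, CCl4 replicates left of oil replicates. In CCl4 replicate 4 both branches (-1.10 and -1.58) and the other SREBP targets (-1.57) lie lowest and the fasting response genes (2.29) highest, while all genes together lie near 0.

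Clock genes differed between livers within both groups, and lipogenic genes are known to cycle over the day. Dbp, a clock output factor, read 8.72, 8.08, 5.74, 5.76 and 6.31 in CCl4 replicates 1 to 5, against 8.39, 7.77, 3.43, 4.04 and 3.42 in oil replicates 1 to 5. Arntl, a clock activator in opposite phase, read 3.15, 3.21, 4.83, 6.08 and 4.71 in CCl4 replicates 1 to 5, against 3.14, 3.41, 6.05, 6.08 and 5.38 in oil replicates 1 to 5. Oil replicates 1 and 2 and CCl4 replicates 1 and 2 had high Dbp with low Arntl, and the other livers had the reverse or lay between. The same oil replicates 1 and 2 were the high pair for Thrsp and the low pair for Scd1 and Insig2. Nr1d2, a clock repressor, was at 1.65 (adjusted p = 0.319) and Npas2, an activator, at -1.30 (adjusted p = 0.438), and 0 of the 12 measured clock genes passed. With the difference Dbp minus Arntl as a covariate, 0 of the 34 genes passed, and 5 were at an unadjusted p under 0.05, all lower (Mlxipl, Fads1, Dgat2, Hsd17b7 and Ebp), where 4.06% of all genes were lower. The log2 fold change of Thrsp was then -2.13. The part of the hour of sampling in these values was not tested further.

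Markers of the cells in the tissue were read beside these genes. Of 8 hepatocyte markers 5 were measured, with sums of log2 levels of 62.7 to 63.4 in CCl4 livers and 62.4 to 63.1 in oil livers, and 0 passed. Their mean levels, 11.96 to 13.05, lay near the highest value on the arrays (13.4), and how well they follow hepatocyte content was not tested. In CCl4 replicate 4 the markers differed in direction, Tat being the highest of the 10 livers (13.02) and Ttr the lowest (12.37), with Alb at 13.12. Of 6 stellate cell and fibroblast markers, 5 rose past the threshold (sums 44.8 to 54.4 in CCl4 livers and 32.1 to 37.5 in oil livers), and of 6 macrophage markers, 5 rose (sums 32.9 to 49.7 in CCl4 livers and 20.4 to 21.9 in oil livers), where 0.781% of all genes rose. Without CCl4 replicate 4 the counts were 5 and 2, where 0.491% of all genes rose. The part of these cells in the lipid synthesis values was not tested. Of 6 markers of white fat, the other lipogenic tissue, 0 passed, and over the 10 livers Adipoq read 1.21 to 1.51, Lep 1.22 to 1.84, Plin1 3.36 to 3.78 and Pparg, the highest of them, 3.97 to 5.14. The array of CCl4 replicate 4 had a quality weight of 0.459, below those of the other 9 arrays. Its array median, 2.66, was the highest (2.54 to 2.64 in the other arrays), and correlations between arrays were 0.959 to 0.990. Its mean correlation with the other arrays, 0.967, was the lowest (0.974 to 0.981 for the others).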

How the data were processed

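Livers of 5 CCl4-treated and 5 oil-treated mice were profiled on Affymetrix whole-transcript arrays, which the series description calls Mouse Exon 1.0 ST and the methods Mouse Gene ST 1.0. The authors deposited 1 log2 value per probe set and array (23332 probe sets). Neither the log base nor the background correction, normalization and summarisation are given in the sources used here; log2 was inferred from the largest value, 13.4. Detection calls and scan batches were not used here. Signal over background is therefore not known for a probe set, and precision is limited by the number of arrays.

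Gene symbols came from the platform annotation: 14996 probe sets had 1 symbol, 1019 several and 7317 none. All 34 measured members were found in a RefSeq table (GRCm38.p6), and 0 symbols differed. No member had more than 1 single-symbol probe set. Levels were compared by limma 3.58.1 in R 4.3.3 (lmFit, then eBayes), p-values of all probe sets being adjusted by the Benjamini-Hochberg method, at a threshold of 0.05 and with no filter. The script was tested on simulated data.

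The members and the companion lists were chosen with earlier results of these data known. Their counts beside shares of all genes are therefore descriptions only. Values per liver are given for 13 chosen members (Srebf1, Mlxipl, Thrsp, Fasn, Acaca, Scd1, Elovl6, Pnpla3, Srebf2, Insig1, Hmgcs1, Sqle and Cyp51), for members with an unadjusted p under 0.05 or groups that did not overlap, and for the 4 largest log2 fold changes of each sign. Of each companion list, up to 4 genes with the smallest p are named, with Dbp, Arntl, Igfbp1, Pdk4 and Fgf21.

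Alternatives were quantile normalization, median centring, brighter probe sets only, array quality weights, a replicate block, a clock covariate, a trended and robust prior, the methods' t-test, and leaving out each array in turn.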

Additional observations from a re-analysis of the deposited data

Results flagged for a closer look

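In 8 of 68 groups (34 genes in CCl4 and in oil livers), the highest or lowest liver stood apart from the other 4. Its gap to the nearest liver was more than 0.71 of the group's range. Chance gives this in about 1 group in 20 where the 5 values of a group are independent and normally distributed, which was not checked. These 68 groups are not independent, since the 34 genes were read in the same livers and many were lowest together in CCl4 replicate 4. That rate therefore cannot be set against 8 of 68, and an excess over chance was not tested. In 5 of the 8 groups CCl4 replicate 4 was the low liver. It read 3.59 for Thrsp (nearest CCl4 liver 9.42), 5.64 for Pklr (nearest 8.80), 8.93 for Scd1 (nearest 11.44), 4.24 for Cyp51 (nearest 7.33) and 5.79 for Nsdhl (nearest 8.78). The other 3 were high oil livers: oil replicate 4 for Pnpla3 (3.47, nearest 2.90), and oil replicate 1 for Mvd (5.33, nearest 4.81) and for Hsd17b7 (8.73, nearest 8.03).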

How the results depend on the processing

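No member passed the adjusted threshold in any limma setting, and 20 of the 34 kept their sign in every setting; 13 changed it when 1 array was left out and 3 in another setting. The methods' t-test at its own threshold (unadjusted, with a fold above 1.6) called 1 member, Mlxipl, lower (0.592% of all genes), and 0 after Benjamini-Hochberg. The number lower at an unadjusted p under 0.05 was 5 with the clock covariate (4.06% of all genes), and 2 to 6 with 1 array left out (3.49 to 5.44% of all genes), 6 without CCl4 replicate 1 (Mlxipl, Fasn, Fads1, Lss, Hsd17b7 and Ebp; 4.19% of all genes). After median centring it was 3, while the share of all genes was 8.32%, against 4.5% as deposited. Members whose groups did not overlap numbered 0 after quantile normalization (1.81% of all genes) and 1 to 2 with 1 array left out (1.74 to 2.51% of all genes), Hsd17b7 joining Ebp without CCl4 replicate 1 and Mlxipl joining it without oil replicate 2. The median log2 fold change ran from -0.51 to -0.08 in the fatty acid branch and from -0.61 to -0.03 in the cholesterol branch with 1 array left out, the upper ends without CCl4 replicate 4. Under the other settings it ran from -0.46 to -0.31 and from -0.51 to -0.16. The signs of these log2 fold changes turned: Acacb, -0.049 after quantile normalization, -0.045 after median centring and -0.10 with array quality weights; Sqle, 0.38, and Insig2, -0.18, with those weights; Fads2, -0.034, with the clock covariate; and Arntl, 0.35, with the same covariate, which Arntl itself enters. With 1 array left out, log2 fold changes that changed sign ranged from -1.81 to 0.16 for Thrsp, -0.031 to 0.46 for Acaca, -0.19 to 0.22 for Acacb, -0.58 to 0.17 for Scd1, -0.038 to 0.19 for Srebf2, -0.63 to 0.055 for Insig1, -0.79 to 0.022 for Stard4, -0.65 to 0.056 for Hmgcs1, -0.31 to 0.10 for Mvk, -0.23 to 0.071 for Fdps, -0.51 to 0.067 for Fdft1, -0.60 to 0.59 for Sqle, -0.91 to 0.16 for Cyp51, -0.25 to 0.46 for Insig2, -0.14 to 1.22 for Lpin1 and -0.16 to 0.92 for Pdk4. The cause of these changes was not tested. Taking the mean of all single-symbol probe sets could change nothing, since no named gene had several. Only Fdps was absent among the brighter probe sets.

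Replicate numbers were not taken as pairs. Deviations of same-numbered livers correlated between -0.04 and 0.16, over 0.1 in 1 of 5 pairs, and only number 4 matched its own number best. Correlations over whole arrays do not settle whether livers were handled in pairs. Dbp minus Arntl was high in replicates 1 and 2 of both groups (5.56 and 4.86 in CCl4 livers, 5.25 and 4.35 in oil livers). It was at most 1.61 in the other livers. With a replicate block, 0 members passed and 0 changed sign.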
